A study of Mus musculus with 2 samples.

Results

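The epithelial miRNA genes Mir200b, Mir200a, Mir429, Mir200c, Mir141, Mir203, Mir205 and Mir375 were followed in microRNA-seq of mouse heart. They are 8 of the 2202 annotated miRNA hairpins in the deposited count tables. They were chosen by name as markers of epithelia that heart muscle lacks, and selected on their counts in these same libraries. Their levels and their ratios between the libraries are therefore descriptions with no test. The samples are 2 libraries of a single group, replicate 2 and replicate 1. Both came from total RNA of the heart of adult male 5xFAD/CAST mice, 8 to 10 months of age. 5xFAD is a mouse line with transgenes for familial Alzheimer disease that are driven in neurons by the Thy1 promoter, and CAST is a wild-derived inbred strain. The labels name no other genotype, no treatment and no control group. Each replicate has its own biosample entry, the donor entry is shared, and nothing in the labels states that separate animals were used. The spread between the replicates may thus be technical.

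The miR-200 family is a set of epithelial microRNAs that repress the transcription factors Zeb1 and Zeb2, which in turn repress the genes of the family, and this loop holds cells in the epithelial or the mesenchymal state. A microRNA finds its targets mainly through its seed, the short stretch after its first base. miR-203 and miR-205 are abundant in skin and other stratified epithelia, and miR-375 is abundant in the pancreatic islet and other neuroendocrine cells. Heart muscle and fibroblasts are not epithelia. A heart piece can hold the mesothelium that covers it and small amounts of attached vessels, airway or glands. Their part in the counts of the members was not tested.

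The mature sequences show how the family splits, because reads of near-identical microRNAs can be told apart only by the bases that differ. Sequences are from RefSeq on build GRCm38.p6, 5′ to 3′, with the seed (bases 2 to 8) in capitals. All 8 members matched a RefSeq hairpin, and each of these was identical in sequence to the GENCODE M21 hairpin. For 7 members the mature arm shown is the usual dominant arm.
miR-200b-3p: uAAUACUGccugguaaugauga
miR-200c-3p: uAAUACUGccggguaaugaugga
miR-429-3p: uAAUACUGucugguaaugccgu
miR-200a-3p: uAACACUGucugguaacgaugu
miR-141-3p: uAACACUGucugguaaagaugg
miR-203-3p: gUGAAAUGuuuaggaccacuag
miR-205-5p: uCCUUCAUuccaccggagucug
Mir375 hairpin: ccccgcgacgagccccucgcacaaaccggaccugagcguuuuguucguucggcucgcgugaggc

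The family falls into 2 seed groups that differ at a single seed base. miR-200b, miR-200c and miR-429 share the seed AAUACUG, and miR-200a and miR-141 share AACACUG. Positions are counted from 1 at the 5′ end, with the first-named microRNA's base first. From miR-200b to miR-200a the seed change is U4C, among 4 differing positions in all. miR-200b and miR-200c differ at U11G and A22G over their first 22 positions, and miR-200c is longer by 1 base. miR-200a and miR-141 differ at C17A and U22G, so their first 16 bases are identical. No other mature sequence among the 1738 in the RefSeq table has either of these seeds, and none shares the seed of miR-203-3p or miR-205-5p.

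No member shares a stretch as long as a whole mature sequence with another counted hairpin. Matches with mismatches and the rest of the genome were not searched, so how reads were placed was not tested. The longest stretch that a member shares with any other counted hairpin was 17 nt, between Mir200a and Mir141. It was 14 nt between Mir200b and Mir200c, 14 nt between Mir205 and Mir6397, 12 nt for Mir429, 11 nt for Mir203 and 9 nt for Mir375. Reads cut short to the shared stretch of Mir200a and Mir141 would align to both and be given to neither, so the counts of these hairpins are less certain than the others. The counts are per hairpin, so both arms of a hairpin are pooled.

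On mm10 the family lies in 2 clusters. Mir200b (ENSMUSG00000065549.3, chr4:156055681-156055750), Mir200a (ENSMUSG00000065400.1, chr4:156054896-156054985) and Mir429 (ENSMUSG00000065427.1, chr4:156053905-156053987) follow each other on the minus strand with gaps of 695 and 908 nt. GENCODE M21 places Mir200b and Mir200a in an intron and Mir429 in an exon of the noncoding transcript Gm13648, and all 3 in an intron of Ttll10. Mir200c (ENSMUSG00000065462.3, chr6:124718322-124718390) and Mir141 (ENSMUSG00000065474.1, chr6:124717914-124717985) lie 336 nt apart on the minus strand, in an intron of the noncoding transcript Gm15884. Mir141 also lies partly in an exon of the gene Gm29008 on the same strand, which does not overlap Mir200c. Mir203 (ENSMUSG00000065574.1, chr12:112130880-112130955, plus strand) and Mir375 (ENSMUSG00000065616.3, chr1:74900658-74900721, minus strand) overlap no other gene of that annotation. Mir205 (ENSMUSG00000065533.1, chr1:193507463-193507530, minus strand) lies in an exon of the noncoding RNA 4631405K08Rik, which RefSeq calls Mir205hg.

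The annotated start of Gm13648 is shown because ZEB factors are known, in human cells, to bind E-box motifs near the start of the transcript that carries this cluster. The 300 bases at chr4:156059753-156060052, minus strand, run from 250 bases before the start to 50 after it, with CACCTG in capitals.
Gm13648: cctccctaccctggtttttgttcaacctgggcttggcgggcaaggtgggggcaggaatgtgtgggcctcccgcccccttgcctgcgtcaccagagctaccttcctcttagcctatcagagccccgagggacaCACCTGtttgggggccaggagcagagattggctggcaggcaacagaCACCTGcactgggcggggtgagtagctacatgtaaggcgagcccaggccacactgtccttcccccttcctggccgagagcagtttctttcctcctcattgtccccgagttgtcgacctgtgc
CACCTG and its reverse complement CAGGTG were searched on both strands, which is the same search. There were 2 matches, at 118 and 72 bases before the start. The same window of Mir205hg, also searched, held 1 match and is not shown. Starts of the other overlapping genes were not examined one by one. Of 32817 promoter windows of this length in the RefSeq table, 20.2% held at least 1 match and 2.88% held 2 or more. The matches are a description of these letters, and transcription from these starts was not measured here.

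The tables held 5058613 sense counts in replicate 2 and 3889280 in replicate 1. Levels are CPM, the sense count of a gene per 1000000 sense counts of its library. Where no read was counted, a limit of 3 counts was set, which is 0.593 CPM for replicate 2 and 0.771 CPM for replicate 1. PCR copies of a molecule were counted as separate reads, so all intervals and limits cover counting error only. The listed microRNA genes of heart cells were detected at unequal levels. The endothelial Mir126a stood at 87787 CPM in replicate 2 and 87115 CPM in replicate 1, and the cardiomyocyte myosin intron genes Mir208a, Mir208b and Mir499 together at 7430 CPM in replicate 2 and 6731 CPM in replicate 1. Of these, Mir208b held 56.5 CPM in replicate 2, against 115 CPM in replicate 1. The heart muscle genes Mir1a-1, Mir133a-1 and Mir133a-2 averaged 1.65, 3.58 and 2.67 CPM. Their mature microRNAs have more than 1 genomic copy, and reads aligned to several places are in no gene count. In bulk tissue, fewer cells of a type and less of an RNA per cell cannot be told apart.

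The members were present at low levels. They held 1955 of the sense counts of replicate 2, or 0.0386% (95% Clopper-Pearson interval 0.0370 to 0.0404), and 791 of those of replicate 1, or 0.0203% (0.0189 to 0.0218). Their summed level was 386 CPM in replicate 2 and 203 CPM in replicate 1, a mean of 295 ± 129 CPM (SD, n = 2). Mir378a, the gene of the highest level in these libraries, averaged 124376 CPM. All 8 members had a count in replicate 2 and 7 in replicate 1. Of all 2202 genes, 538 had a count in both libraries and 1490 had none in either. At least 10 counts in both libraries were reached by 6 of 8, against 14.8% of all 2202 genes, and the other 2 were Mir200a and Mir205.

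**Figure D1:**
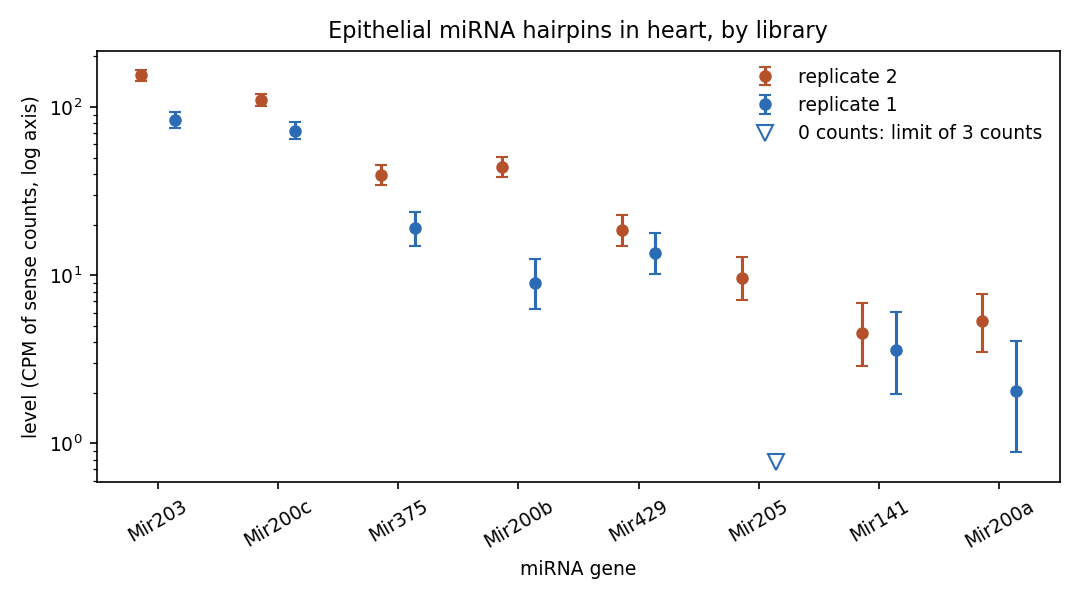
Level of each member in CPM on a log axis, replicate 2 left of replicate 1, with exact 95% Poisson intervals and members ordered by mean level. Mir203 and Mir200c stand highest in both libraries, and the open triangle marks the limit of 0.771 CPM for Mir205, which had 0 counts in replicate 1.

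Mir203, the skin and stratified epithelium gene, led the members. It had 779 counts in replicate 2 and 325 in replicate 1, or 154 CPM in replicate 2 (95% exact Poisson interval 143 to 165) and 83.6 CPM in replicate 1 (74.7 to 93.2). Its mean of 119 ± 49.8 CPM (SD, n = 2) ranked 124 among the 2202 genes.

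Mir200c, the leading miR-200 gene, reached 560 counts in replicate 2, against 282 in replicate 1. These are 111 CPM in replicate 2 (102 to 120) and 72.5 CPM in replicate 1 (64.3 to 81.5), a mean of 91.6 ± 27.0 CPM at rank 137. Mir203 exceeded Mir200c 1.39-fold in replicate 2 (exact 95% interval of the count ratio 1.25 to 1.55) and 1.15-fold in replicate 1 (0.980 to 1.36), an order that counting error does not settle in replicate 1. The cluster neighbour of Mir200c, Mir141, had 23 counts or 4.55 CPM in replicate 2 and 14 counts or 3.60 CPM in replicate 1, with a mean of 4.07 ± 0.670 CPM.

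The hairpins of the chromosome 4 cluster were lower than Mir200c. Mir200b had 223 counts or 44.1 CPM in replicate 2 (38.5 to 50.3) and 35 counts or 9.0 CPM in replicate 1 (6.27 to 12.5). Mir429 had 94 counts or 18.6 CPM in replicate 2 (15.0 to 22.7) and 53 counts or 13.6 CPM in replicate 1 (10.2 to 17.8). Mir200a had 27 counts or 5.34 CPM in replicate 2 (3.52 to 7.77) and 8 counts or 2.06 CPM in replicate 1 (0.888 to 4.05). Within this cluster Mir200b differed most between the libraries in CPM.

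For Mir375, the islet and neuroendocrine gene, 200 counts were found in replicate 2 and 74 in replicate 1. These are 39.5 CPM in replicate 2 (34.2 to 45.4) and 19.0 CPM in replicate 1 (14.9 to 23.9), a mean of 29.3 ± 14.5 CPM. Mir205, a gene of stratified and glandular epithelium, had 49 counts in replicate 2, against 0 in replicate 1, or 9.69 CPM (7.17 to 12.8) against a limit of 0.771 CPM. At the depth of replicate 1, its 49 counts would correspond to 37.7 counts, above the limit of 3 that was used for a count of 0. The exact Poisson interval of Mir205 in replicate 1 reached 0.948 CPM, above the limit of 0.771 CPM.

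By mean level the order was Mir203, Mir200c, Mir375, Mir200b, Mir429, Mir205, Mir141 and Mir200a. This is an order of counts, and how evenly the different sequences were captured was not tested. Dividing by hairpin length, 64 to 90 nt, gave the same order. The libraries' ranges did not overlap between Mir200c and Mir375, nor between Mir429 and Mir205. They overlapped for the other 5 neighbouring pairs, whose order is not settled by these libraries. Within replicate 2, Mir200b stood above Mir375 and Mir200a above Mir141. Within replicate 1, Mir429 stood above Mir200b and Mir205 was last.

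**Figure D2:**
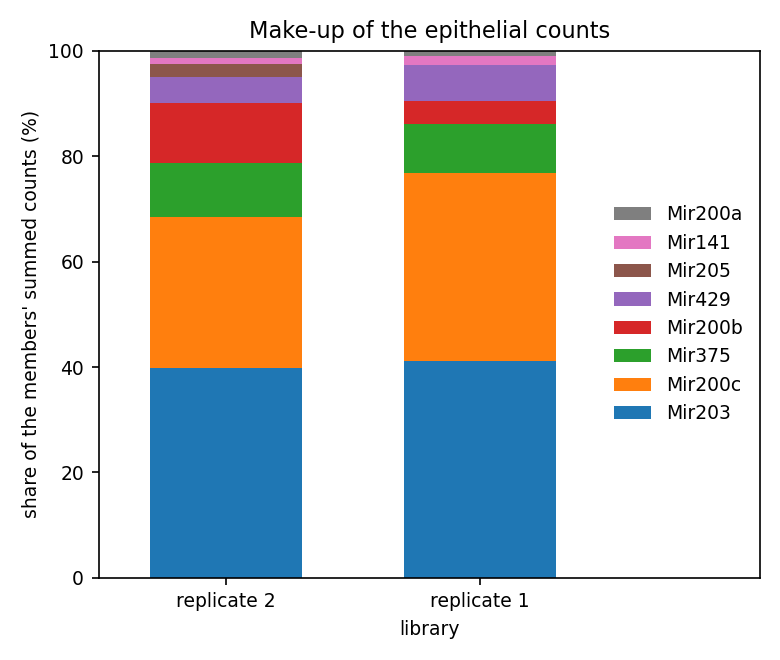
Share of each member in the summed counts of the 8 members, in percent, in replicate 2 and in replicate 1. Mir203 took 39.8% in replicate 2 and 41.1% in replicate 1, while Mir200b took 11.4% in replicate 2 and 4.42% in replicate 1.

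In the summed counts the leading member had a like share in both libraries, while the shares of Mir200b and Mir200c differed. Mir205 took 2.51% in replicate 2 and 0% in replicate 1. Mir203 took 39.8% of the members' counts in replicate 2 and 41.1% in replicate 1. In replicate 2 Mir200c took 28.6%, Mir200b 11.4% and Mir375 10.2%. In replicate 1 Mir200c took 35.7%, Mir200b 4.42% and Mir375 9.36%. The 5 miR-200 genes together took 47.4% in replicate 2 and 49.6% in replicate 1.

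Hairpins of a cluster share a strand and lie close together, and their levels were far from equal. Mir200c exceeded Mir141 24.3-fold in replicate 2 (exact 95% interval 16.1 to 38.7) and 20.1-fold in replicate 1 (11.8 to 37.3). Mir200b exceeded Mir200a 8.26-fold in replicate 2 (5.53 to 12.8) and 4.38-fold in replicate 1 (1.99 to 10.9). In both pairs the hairpin with the seed AACACUG thus had the lower count, and each pair's intervals overlapped between the libraries. These are counts of different sequences, and how evenly the libraries captured them was not tested. Mir200a and Mir141 are also the hairpins whose counts are less certain, through their shared stretch of 17 nt.

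Mir200b and Mir429, which share a seed, stood in opposite order in the libraries. Mir200b had 2.37 counts for each count of Mir429 in replicate 2 (1.86 to 3.05) and 0.660 in replicate 1 (0.418 to 1.03). These intervals do not overlap. The chromosome 6 cluster exceeded the chromosome 4 cluster 1.69-fold in replicate 2 (1.48 to 1.94) and 3.08-fold in replicate 1 (2.44 to 3.92), and these intervals do not overlap either.

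Summed by seed, the libraries showed like proportions. The 3 hairpins with AAUACUG had 877 counts or 173 CPM in replicate 2 and 370 counts or 95.1 CPM in replicate 1. The 2 hairpins with AACACUG had 50 counts or 9.88 CPM in replicate 2 and 22 counts or 5.66 CPM in replicate 1. The ratio of the seed groups was 17.5 in replicate 2 (13.2 to 23.8) and 16.8 in replicate 1 (10.9 to 27.2). How evenly the libraries captured the sequences of these groups was not tested.

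Every member stood higher in replicate 2 than in replicate 1. Each ratio sets replicate 2 over replicate 1, with library sizes scaled by TMM, and carries an exact conditional binomial interval of the counts. Such an interval compares these libraries and says nothing of conditions. All 8 members had a ratio above 1, against 49.8% of the 412 genes with at least 10 counts over both libraries. The interval lay wholly above 1 for 7 of 8, against 25.5% of those genes. Since the members were chosen with these ratios known, these counts are read as a description only.

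The ratio was 5.34 for Mir200b (3.73 to 7.86), 2.83 for Mir200a (1.25 to 7.21), 2.27 for Mir375 (1.73 to 3.0) and 2.01 for Mir203 (1.76 to 2.29). It was 1.66 for Mir200c (1.44 to 1.93) and 1.49 for Mir429 (1.05 to 2.12). Mir141 had a ratio of 1.38 with an interval of 0.679 to 2.89, which includes 1. Mir205 was 13.7-fold higher in replicate 2 when the set limit of 3 counts stands for the 0 of replicate 1. The lower end of its exact interval was smaller, at 10.7.

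On the log2 scale 1 CPM was added to each level, so the ratios of low genes are understated, and 4 of 8 members were at least 2-fold higher in replicate 2. They were Mir205, Mir200b, Mir200a and Mir375. The share was 7.52% among the 412 genes, and 9.14% among the 186 genes whose summed counts lay in the members' range of 35 to 1104. Just outside this fold was Mir203 at a log2 ratio of 0.998, and Mir200c lay further below it at 0.73. Just inside were Mir375 at 1.14 and Mir200a at 1.15. With a sum of at least 50 counts, which leaves out Mir205, Mir200a and Mir141, 2 of 5 members passed the fold, against 8.87% of the 282 genes with such a sum. At least 2-fold lower in replicate 2 were 0 of 8 members, against 4.61% of the 412 genes. The members' median log2 ratio was 1.07, and that of all 412 genes was -0.0038.

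**Figure D3:**
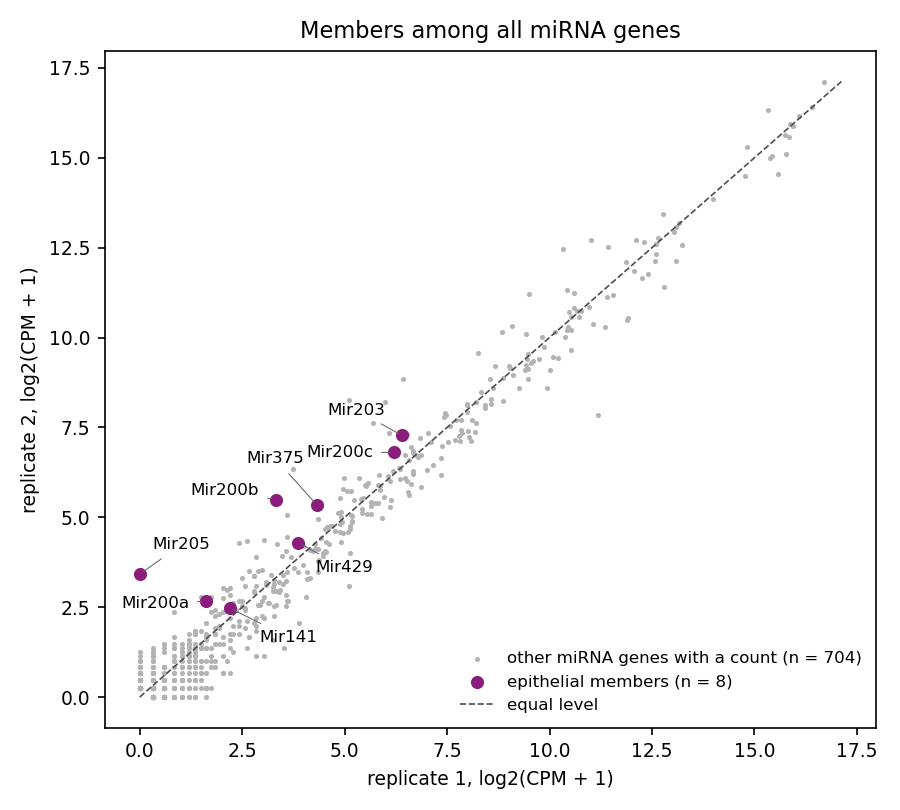
Level of each miRNA gene with at least 1 count, as log2(CPM + 1), in replicate 2 (vertical) against replicate 1 (horizontal), with members in purple and the dashed line marking equal levels. All 8 members lie above the line, Mir141 closest to it, and Mir205 lies at 0 on the horizontal axis, with 0 counts in replicate 1.

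Other epithelial miRNA genes went partly the same way. Of 17 listed genes 16 had a row in the tables and 13 had a sum of at least 10 counts. Of these 13, 10 stood higher in replicate 2, against 49.8% of the 412 genes, and 3 at least 2-fold higher, against 7.52%. Mir31, which is expressed in keratinocytes and in other cells too, had 5776 counts in replicate 2 and 1787 in replicate 1. Its ratio of 2.71 had an interval of 2.57 to 2.86.

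The sensory epithelium genes Mir183 and Mir182 had 99 and 70 counts in replicate 2, against 28 and 24 in replicate 1. Their ratios were 2.96 (1.93 to 4.69) and 2.45 (1.52 to 4.07). Mir96 of the same cluster had 0 counts in replicate 2, against 1 in replicate 1. Of the multiciliated epithelium genes, Mir34c had 342 counts in replicate 2 against 154 in replicate 1, a ratio of 1.86 (1.54 to 2.27). Mir449a had 170 counts in replicate 2 against 108 in replicate 1, a ratio of 1.32 (1.03 to 1.70). The other 3 were at most at 9 counts in a library, with Mir34b at 8 in replicate 2 and 9 in replicate 1, Mir449c at 0 in replicate 2 and 2 in replicate 1, and Mir449b at 0 in both.

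Of the gut, liver and kidney genes, Mir215 and Mir194-2 had ratios of 1.96 (1.58 to 2.45) and 2.05 (1.42 to 2.99). The ratios of Mir192 and Mir194-1, 1.14 (0.871 to 1.5) and 1.07 (0.778 to 1.48), had intervals that include 1. Mir194-1 and Mir194-2 are hairpins of the same microRNA. Reads that aligned to both are in neither count, so their ratios are less certain. Of the corneal and pigment epithelium genes, Mir204 stood lower in replicate 2 with a ratio of 0.793 (0.686 to 0.917). The intervals of Mir184 at 0.890 (0.714 to 1.11) and of Mir211 at 1.68 (0.582 to 5.45), with 12 counts in replicate 2 and 6 in replicate 1, include 1. The higher epithelial level in replicate 2 was therefore not common to all listed epithelial genes. Without Mir31, the listed genes summed to 365 CPM in replicate 2 and 312 CPM in replicate 1, a ratio of 1.28 (1.19 to 1.37).

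Genes listed for the islet and the pancreas went both ways. Mir7-1 and Mir7b, of islet and neuroendocrine cells, had 56 and 54 counts in replicate 2, against 49 and 27 in replicate 1. Their ratios were 0.958 (0.641 to 1.44) and 1.68 (1.04 to 2.77), so that the interval of Mir7b overlapped that of Mir375 and lay above 1. Mir7-2, a further hairpin of the miR-7 family, had 1 count in replicate 2, against 8 in replicate 1. The exocrine pancreas genes Mir216a, Mir216b and Mir217 summed to 4 counts in replicate 2, against 5 in replicate 1.

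**Figure D4:**
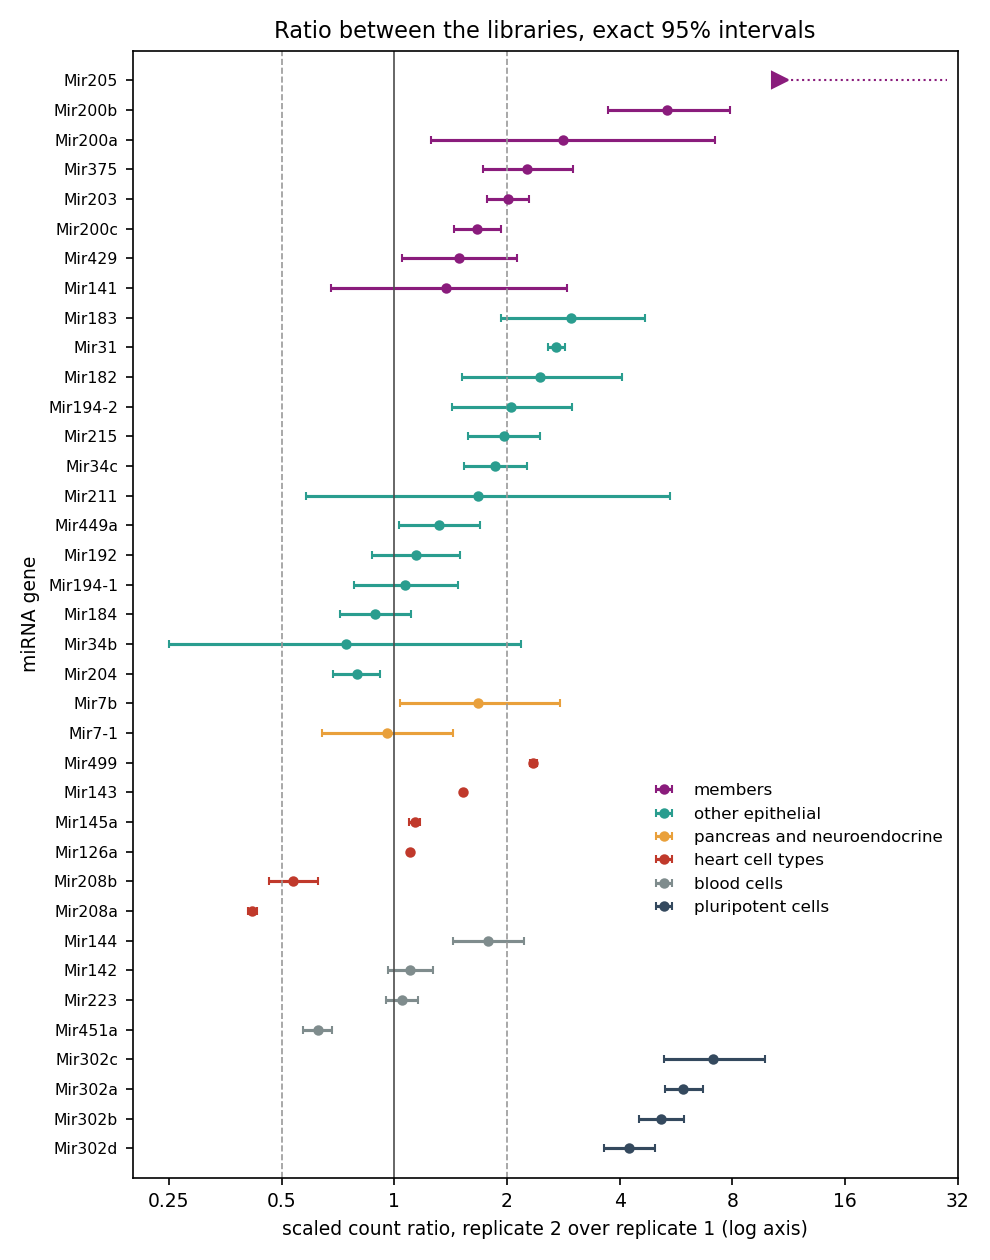
Scaled count ratio of replicate 2 over replicate 1 on a log axis, with exact 95% intervals, for members and for listed genes of other cell types with at least 10 counts over both libraries. The solid line marks equal levels and the dashed lines 2-fold, and the arrow for Mir205 starts at 10.7, the lower end of its exact interval, which has no upper end. The points of the members and of the Mir302 genes lie right of the solid line, while heart and blood cell genes lie on both sides.

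Some markers of other cells also stood higher in replicate 2, and their part in the members' ratios was not tested. The pluripotent cell genes Mir302a, Mir302b, Mir302c and Mir302d all stood at least 2-fold higher in replicate 2, against 7.52% of the 412 genes. With Mir367 they summed to 1032 CPM in replicate 2 and 210 CPM in replicate 1. Mir367, of the same list, had 0 counts in both libraries. The heart cell genes went both ways, with 4 of 6 higher in replicate 2, against 49.8% of the 412 genes. Mir499 had a ratio of 2.35 (2.30 to 2.40), Mir208a one of 0.417 (0.405 to 0.429) and Mir208b one of 0.538 (0.462 to 0.625). Mir126a stood at 1.10 (1.09 to 1.10). The smooth muscle genes Mir143 and Mir145a stood at 1.53 (1.52 to 1.54) and 1.13 (1.10 to 1.17). The blood cell list summed to 496 CPM in replicate 2 and 605 CPM in replicate 1. Of its 4 genes 3 stood higher in replicate 2, against 49.8% of the 412 genes. The erythroid Mir144 had a ratio of 1.78 (1.43 to 2.22), while the erythroid Mir451a had one of 0.624 (0.570 to 0.683). The leukocyte genes Mir142 and Mir223 had ratios of 1.10 (0.961 to 1.27) and 1.05 (0.952 to 1.16), with intervals that include 1.

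In the plane of log2(CPM + 1) of the 2 libraries, the gene nearest to Mir203 was Mir101a, at a distance of 0.13, with 805 counts in replicate 2 and 354 in replicate 1. The nearest to Mir375 was Mir708, at 0.092, with 197 counts in replicate 2 and 79 in replicate 1. The nearest to Mir429, Mir141 and Mir200c were Mir431, Mir7052 and Mir152, at 0.078, 0.11 and 0.28. Mir200b stood more alone, with Mir201 at a distance of 0.51, with 164 counts in replicate 2 and 43 in replicate 1. With 2 libraries, likeness of this kind holds only a level and a ratio.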

How the data were processed

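Small RNA of mouse heart was measured by microRNA-seq in 2 libraries. The authors deposited raw read counts per miRNA gene, not normalized, on build mm10 with annotation M21 per the file headers of the accompanying description files. The sources used here do not give the aligner or the read filters. Reads aligned to several places, 46.8% of reads in replicate 2 and 42.3% in replicate 1, stayed in a summary line and out of all gene counts, and no summary line entered a library size. Reads of a CAST allele were placed on the mm10 sequence, and any effect of this was not tested.

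Column 3 of the deposited counts was used as the sense strand. It held 5058613 counts in replicate 2, 35.6% of all reads, and 3889280 counts in replicate 1, 35.9% of all reads. Gene identifiers were matched to GENCODE M21 (2202 of 2202). CPM, ratios and exact intervals were computed with Python 3.11.15 and SciPy 1.17.1, and TMM factors with edgeR 4.0.16, with DESeq2 1.42.0 size factors as an alternative for scaling only. The ratio calculation was tested on simulated Poisson counts, for genes above a minimum expected count that Mir205, Mir141 and Mir200a do not reach. Such counts hold no PCR copies, so this checks the calculation and not how the intervals cover the spread of real libraries. No test was run, since there is a single group. The members and lists were chosen with earlier results of these data known. Named genes are the 8 members, listed genes of other cell types with at least 10 counts in both libraries or beside a member, the gene nearest to each of the 6 members that reached this minimum, and the gene of the highest level. The text also names some listed genes below that minimum, chosen after their values were seen. Mir1a-1, Mir133a-1 and Mir133a-2 are named outside this rule, as they are in none of the lists. Alternatives tried were scaling, the count column, the low-count minimum, the CPM added, the denominator and each library alone.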

Additional observations from a re-analysis of the deposited data

How the results depend on the processing

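No paired analysis was possible because all samples belong to a single group. The members' median log2 ratio was 1.07, and 0.95 to 1.10 under the 6 other settings for scaling, count column, added CPM and low-count minimum. Scaling by total sense counts moved the median of the 412 genes to -0.12, and the members' median of 0.95 is to be read against that shift. The number of members at least 2-fold higher was 4, and 4 or 5 under these settings except with a minimum sum of 50 counts, which gave 2, since 3 members are not counted there. The share of all genes that passed the fold was 7.52%, and 5.34% to 9.47% under these settings. Every member kept a ratio above 1 under each scaling, count column and added CPM tried. The summed level was 295 CPM, 386 CPM without replicate 1 and 203 CPM without replicate 2, 389 CPM with the column that ignores strand, and 105 CPM with all reads as the denominator, which is larger. Members detected were 6, 8 without replicate 1 and 6 without replicate 2, 7 with a minimum of 1 count and 4 with a minimum of 50 counts. Of all 2202 genes, 325 were detected, and 538 with a minimum of 1 count. The counts of all genes under the other settings are not given here. Depth limits Mir200a, Mir141 and Mir205 most, with sums of at most 49 counts.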

Other observations

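Counts on the strand opposite a member were 0, except at Mir203, which had 3 in replicate 2 and 0 in replicate 1. RefSeq annotates the hairpin Mir203b opposite Mir203, and it was not analysed here. At the 2138 genes with no counted miRNA gene opposite, 109 such counts were found in replicate 2 and 107 in replicate 1. These are 0.00288% of the sense counts of those genes in replicate 2 and 0.00353% in replicate 1, while the 3 counts at Mir203 are 0.153% of the members' sense counts in replicate 2.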
